A study of Mus musculus with 6 samples.

Results

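The genes described here are 42 genes of the cell cycle and of DNA replication, measured by RNA sequencing in brown adipose tissue (BAT) of wild-type (WT) and Letmd1 KO (KO) mice. They were taken by symbol from a list of known cell cycle genes: 26 act in G2 phase and mitosis, 13 in S phase, and the other 3 are the D cyclins Ccnd1, Ccnd2 and Ccnd3. The list was chosen with earlier results of these data known, so the share that changed is not independent of that choice. All 42 are among the 23282 rows of the deposited tables, and all 42 are among the 12995 genes that had enough counts to be tested. Both groups were male C57BL/6N mice at 5 weeks of age, with 3 mice in each. The labels of the WT mice name no allele or agent. The KO mice carried a knockout-first allele in the whole body, in which lacZ and neomycin resistance genes sit in an intron of Letmd1 ahead of exon 3, so that every cell type of the tissue carried the allele and the cassette.

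Letmd1 itself had 5658, 6490 and 5266 counts in the WT mice and 0, 0 and 1 in the KO mice (adjusted p = 1.38e-08). Unless another tool is named, each adjusted p comes from the quasi-likelihood test of edgeR, adjusted by the Benjamini-Hochberg method over all genes tested. The libraries held between 6669577 and 14574273 counts, so that the floor of 3 counts, the most that a count of 0 leaves room for, equalled between 0.176 and 0.396 CPM. CPM here are counts scaled to a common library size by the TMM method, and the floor covers counting error only. The method reads the 3′ end of each transcript, so that a level does not scale with the length of the gene. The tissue markers matched the label, with Ucp1 between 5836 and 6867 CPM in each WT mouse. In the KO mice Ucp1 lay between 254 and 476 CPM. The mean sum over 8 brown adipocyte markers was 43593 CPM in WT mice and still 14246 CPM in KO mice. Most of each sum was Fabp4, at a mean of 27996 CPM in WT mice and 10445 CPM in KO mice. In bulk tissue, fewer cells of a type and less RNA per cell cannot be told apart, and the same holds for more cells and more RNA per cell.

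A dividing cell first copies its DNA and then separates the copies. D cyclins with their kinases start the process, E2F transcription factors switch on the helicase, clamp and nucleotide enzymes of S phase, and a second set of genes for the spindle, the centromere and the final cut between daughter cells is switched on in G2 and mitosis. Mature brown adipocytes rarely divide, whereas their progenitors and some of the immune cells in the tissue can.

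Of the 42 genes, 36 were higher in KO BAT, 1 was lower and 5 did not pass the test. The adjusted p of the 36 ran from 1.80e-06 for Ccnd2 to 0.0236 for Kif11. Over all genes tested, 23.7% were higher and 22.3% were lower by the same rule. Bub1, Aurkb, Ccnb1, Tpx2 and Rrm2 had fewer than 10 counts in every WT mouse. Such genes passed the count filter through the KO mice alone and could not be called lower. Every KO mouse was above every WT mouse for 37 of the 42, against 30.1% of all genes. On the log2 scale the 42 genes had a median fold change of 2.17, against 0.03 for all genes tested. When the libraries were scaled by their size alone, 39 of the 42 were higher, but so were 45.4% of all genes tested, and the median of all genes moved to 0.45. The genes of G2 and mitosis changed most: 24 of 26 were higher with a median of 2.79. In S phase, 10 of 13 were higher with a median of 1.73. Among the D cyclins, Ccnd1 and Ccnd2 were higher and Ccnd3 was lower.

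**Figure D1:**
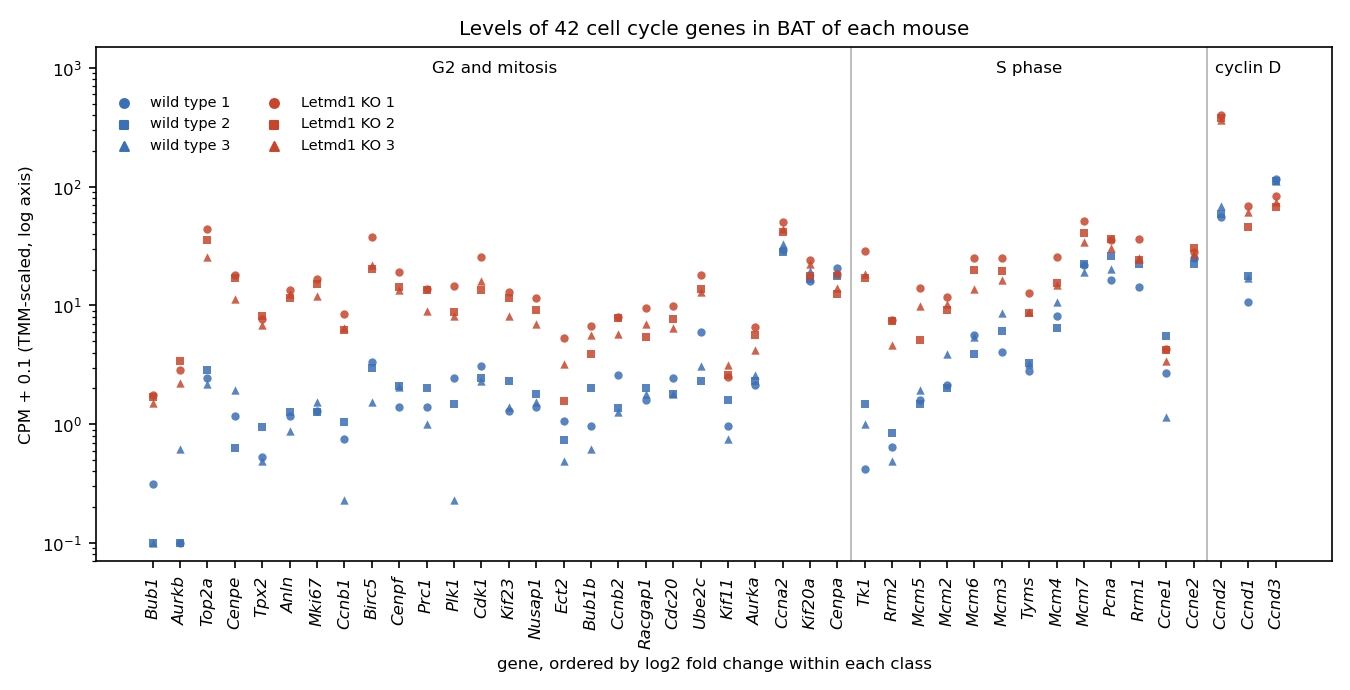
Each column is 1 gene, and each point is the level in 1 mouse as TMM-scaled CPM plus 0.1 on a log axis, with WT mice in blue and KO mice in red and the replicate given by the marker shape. For most genes of G2 and mitosis the 3 red points lie well above the 3 blue points, whereas Ccne1 and Cenpa overlap and Ccnd3 is lower in red.

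The reads of some of these genes cannot be told apart from those of a neighbour. The sources used here do not state whether strand was used in counting. In 8 of the 42 genes, exon bases within the last 500 genomic positions overlap an exon of a coding gene on the opposite strand. Positions are those of GENCODE vM21 on GRCm38, the build that the submitters' processing notes call mm10. Kif20a, a kinesin of cytokinesis, had 149, 156 and 149 counts in the WT mice and 219, 132 and 375 in the KO mice. Cdc23, the gene on the other strand, had 143, 156 and 154 counts and 218, 132 and 365 counts in the same mice. The ratio of the pair was therefore between 0.968 and 1.04 in all 6 libraries. The same ratio was between 0.865 and 1.30 for Ccne2 and Ints8, where the genotypes overlapped. For Ccna2 and Exosc9 it ran from 0.861 to 0.878 in WT mice and from 1.003 to 1.07 in KO mice. For Ccnd3 and Bysl it ran from 0.779 to 0.826 in WT mice and from 0.740 to 0.775 in KO mice. Ccnd3 occupies positions 47505051 to 47599691 of chromosome 17, plus strand. The ranges of WT and KO mice lay apart for the pairs of Ccna2 and Ccnd3, and also for the other 4. Ccnd1 over Oraov1 ran from 0.811 to 1.91 in WT mice and from 4.09 to 4.62 in KO mice. Mcm7 over Cops6 ran from 0.190 to 0.268 and from 0.544 to 0.831. Cdc20 over Elovl1 ran from 0.114 to 0.176 and from 0.194 to 0.262, and Prc1 over Rccd1 from 2 to 6 and from 8.50 to 62.0. The ratio of Prc1 rests on few counts of Rccd1, 2, 9 and 3 in the WT mice and 2, 12 and 15 in the KO mice. Rccd1 had too few counts to be tested. Of the 8 genes, 5 were higher, 1 was lower and 2 did not pass the test, with a median log2 fold change of 0.78. Of the other 34 genes, 31 were higher and 3 did not pass the test, with a median of 2.61, and none of the 34 was lower by edgeR or by DESeq2 (0 also at an unadjusted p under 0.05).

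**Figure D2:**
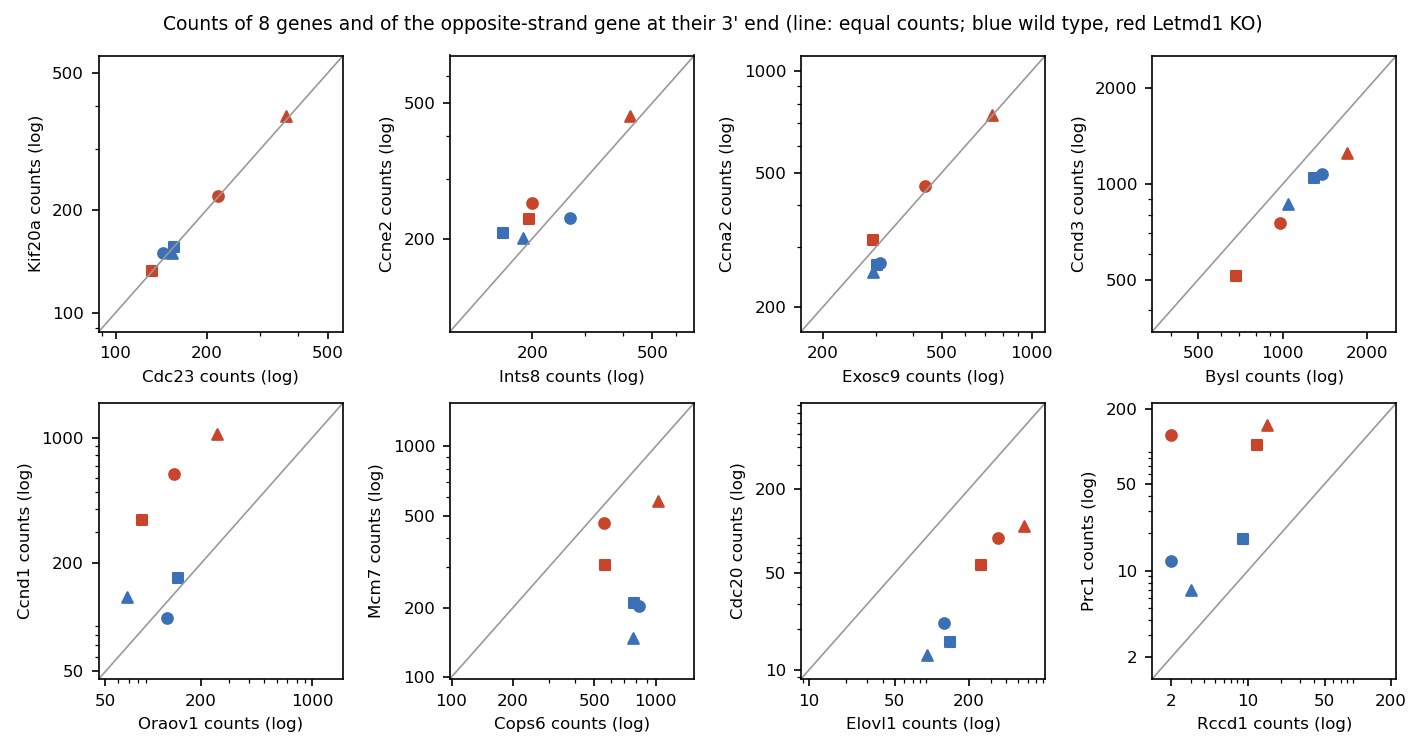
Each panel sets the counts of 1 cell cycle gene against those of the opposite-strand gene at its 3′ end, 1 point per mouse on log axes, with WT mice in blue, KO mice in red and equal counts on the grey line. The points of Kif20a follow the line and those of Ccnd3 run beside it, whereas the red points of Ccnd1, Mcm7 and Prc1 leave the course of the blue ones.

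The genes of G2 and mitosis and those of S phase are known to differ in their promoters. A CCAAT box is the element that NF-Y binds, and the cell cycle homology region (CHR) is bound by the DREAM complex, which holds late cell cycle genes down in resting cells. E2F factors bind sites in many S-phase genes. The promoters were read from RefSeq on GRCm38.p6, from 250 bases before to 50 after the start of each gene, and were found for 34 of the 42 genes. No entry was found for Ccna2, Aurkb, Tpx2, Kif20a, Mcm4, Ccne2, Ccnd1 or Ccnd2. The CHR core, searched as TTTGAA or as its reverse complement TTCAAA, was in 17 of 22 promoters of G2 and mitosis genes (77.3%), in 1 of 11 of S-phase genes (9.09%) and in 14% of the 9808 tested genes with a promoter. CCAAT or its reverse complement ATTGG was in 19 of 22 (86.4%), in 8 of 11 (72.7%) and in 42.6%. Both motifs stood in 16 of the 22 (72.7%) and in 6.81% of the tested genes. The E2F forms TTTGGCGC, TTTCCCGC, TTTGCCGC and TTTCGCGC, on both strands, were in 1 of 22 (4.55%), in 4 of 11 (36.4%, the 4 being Mcm3, Mcm5, Mcm6 and Mcm7) and in 4.6%. The first and the last of these forms can overlap when they stand on opposite strands. A match is a stretch of letters and not a measured binding site.

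Promoters of 4 genes that rose are shown here because they hold the different combinations, with CCAAT, CHR and E2F letters in capitals, 5′ to 3′ on the strand of the gene. Ccnb2, the second B-type cyclin, has 3 CCAAT boxes and 2 CHR cores, 1 of them at the start (chr9:70421505-70421804, minus strand). Top2a has 6 CCAAT boxes in either orientation and 2 CHR cores (chr11:99024140-99024439, minus strand). Mcm6 has 2 CCAAT boxes and 3 E2F matches, 2 of which overlap in a single run of capitals (chr1:128359656-128359955, minus strand). Tk1 has none of the letters searched (chr11:117825965-117826264, minus strand).
Ccnb2: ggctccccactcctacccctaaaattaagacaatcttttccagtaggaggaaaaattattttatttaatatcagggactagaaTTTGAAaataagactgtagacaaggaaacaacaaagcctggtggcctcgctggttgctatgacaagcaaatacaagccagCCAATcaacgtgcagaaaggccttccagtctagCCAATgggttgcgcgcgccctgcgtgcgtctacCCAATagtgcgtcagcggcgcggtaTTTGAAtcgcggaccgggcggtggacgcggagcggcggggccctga
Top2a: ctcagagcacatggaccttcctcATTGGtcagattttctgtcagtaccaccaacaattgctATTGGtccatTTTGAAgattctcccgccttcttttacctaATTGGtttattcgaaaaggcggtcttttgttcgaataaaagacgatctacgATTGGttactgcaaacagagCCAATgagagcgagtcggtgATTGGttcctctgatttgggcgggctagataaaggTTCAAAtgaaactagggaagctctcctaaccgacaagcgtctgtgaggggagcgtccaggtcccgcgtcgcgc
Mcm6: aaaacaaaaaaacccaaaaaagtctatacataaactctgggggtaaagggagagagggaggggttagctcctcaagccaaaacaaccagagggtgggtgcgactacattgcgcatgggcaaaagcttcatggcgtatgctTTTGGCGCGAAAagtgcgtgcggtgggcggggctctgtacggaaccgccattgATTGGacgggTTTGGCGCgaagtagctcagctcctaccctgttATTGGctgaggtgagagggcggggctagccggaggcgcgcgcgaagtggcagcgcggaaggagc
Tk1: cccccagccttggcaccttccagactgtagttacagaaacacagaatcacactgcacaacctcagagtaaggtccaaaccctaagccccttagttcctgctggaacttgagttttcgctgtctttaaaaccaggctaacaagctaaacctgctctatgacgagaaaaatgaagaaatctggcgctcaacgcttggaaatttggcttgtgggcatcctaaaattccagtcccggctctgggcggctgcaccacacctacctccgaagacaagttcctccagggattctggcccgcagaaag

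**Figure D3:**
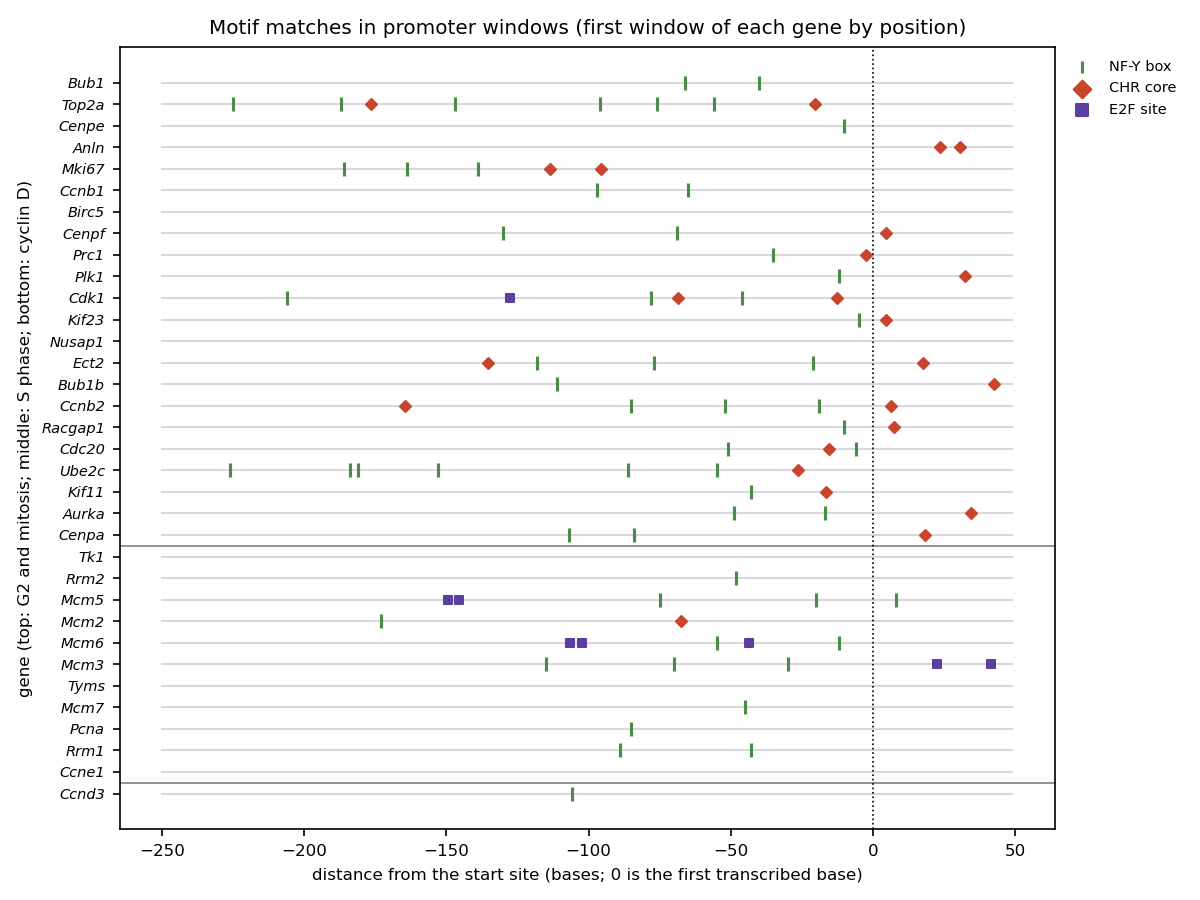
Each row is the promoter of 1 gene from 250 bases before to 50 after the start site, in bases from the start, with NF-Y boxes (CCAAT) in green, CHR cores in red and E2F matches in violet. Red diamonds lie in 17 of the 22 promoters of G2 and mitosis genes, most of them within 50 bases of the start, and in 1 of the 11 of S-phase genes. Only 1 promoter is drawn per gene. The E2F matches of Mcm7, at -165 to -158 and at 16 to 23, lie in another promoter with further CCAAT boxes and are not seen.

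The marks most used to count dividing cells were among the genes that rose. Mki67, which encodes the Ki-67 protein of cycling nuclei, stood at 1.18, 1.17 and 1.43 CPM in the WT mice and at 16.6, 15.2 and 11.9 CPM in the KO mice, a log2 fold change of 3.52 ± 0.27 (SE, as after each log2 fold change here, n = 3 per group, adjusted p = 1.60e-05). Top2a, the topoisomerase that untangles copied chromosomes, stood at 2.37, 2.75 and 2.08 CPM and at 44.2, 35.1 and 25.7 CPM, a log2 fold change of 3.85 ± 0.25 (adjusted p = 9.07e-06). The lowest KO mouse was thus far above the highest WT mouse for both genes, and Top2a was more abundant than Mki67 in each KO mouse.

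Cdk1, the kinase that drives entry into mitosis, and its cyclins rose to different degrees. Cdk1 went from 3.02, 2.33 and 2.21 CPM to 25.2, 13.5 and 15.9 CPM (log2 fold change 2.84 ± 0.30, adjusted p = 8.02e-05). Ccnb1, the main B-type cyclin, went from 0.646, 0.953 and 0.130 CPM to 8.34, 6.08 and 6.34 CPM (3.51 ± 0.48, adjusted p = 0.000354), where 0.130 CPM was a single count. Ccnb2, whose promoter is printed above, went from 2.48, 1.27 and 1.17 CPM to 7.90, 7.79 and 5.64 CPM (2.09 ± 0.36, adjusted p = 0.00142). No mouse of either genotype crossed over for these 3 genes. Ccna2, cyclin A2 of S phase and G2, rose far less, from 29.1, 28.3 and 33.0 CPM to 50.04, 41.7 and 43.5 CPM (0.58 ± 0.13, adjusted p = 0.00579), and its mean WT level was already 30.1 CPM against 2.52 CPM for Cdk1. Its counts were near those of Exosc9, whose log2 fold change was 0.33 (adjusted p = 0.0736), but their ratio was higher in every KO mouse than in any WT mouse. How much of either value belongs to Ccna2 was not tested.

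All 4 mitotic kinases and partners of the chromosomal passenger complex were higher. Aurkb, the kinase of that complex, had 0, 0 and 4 counts in the WT mice and 25, 25 and 36 in the KO mice (adjusted p = 0.00413). Its ratio of summed counts was 16.8 with a counting interval (95%) of 6.34 to 63.2. Each sum was first divided by the summed TMM-scaled library sizes of its group. Birc5, the survivin subunit that recruits Aurkb, went from 3.23, 2.86 and 1.43 CPM to 37.6, 20.1 and 21.8 CPM (log2 fold change 3.37 ± 0.34). Plk1, a kinase of mitotic entry and spindle assembly, went from 2.37, 1.38 and 0.130 CPM to 14.4, 8.72 and 8.10 CPM (2.95 ± 0.57), with a WT range wider than that of the other 3. Aurka, the kinase of spindle poles, rose least, from 2.05, 2.22 and 2.47 CPM to 6.47, 5.55 and 4.11 CPM (1.25 ± 0.31, adjusted p = 0.00989), and fell short of the threshold under quantile normalization (0.69, adjusted p = 0.0719 from limma).

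The genes of the spindle checkpoint and of the anaphase-promoting complex were all higher, 4 of 4. Bub1, a checkpoint kinase, had 2, 0 and 0 counts in the WT mice and 15, 12 and 24 in the KO mice. Its ratio of summed counts, scaled as for Aurkb, was 19.97 with a counting interval of 5.25 to 169. Its relative Bub1b went from 0.862, 1.91 and 0.521 CPM to 6.58, 3.83 and 5.52 CPM (log2 fold change 2.24 ± 0.47). Cdc20, the activator of the complex, went from 2.37, 1.69 and 1.69 CPM to 9.88, 7.53 and 6.34 CPM (2.03 ± 0.31), while its neighbour Elovl1 also rose (1.36). Ube2c, the ubiquitin-conjugating enzyme of the complex, went from 5.92, 2.22 and 3.0 CPM to 18, 13.6 and 12.9 CPM (1.99 ± 0.34). The KO mice were above the WT mice for each of the 4.

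The 3 spindle genes Tpx2, Nusap1 and Kif11 were higher. Tpx2, which activates Aurora A on microtubules, went from 0.431, 0.847 and 0.391 CPM to 7.57, 8.06 and 6.75 CPM (log2 fold change 3.69 ± 0.37). Nusap1, a microtubule-bundling protein, went from 1.29, 1.69 and 1.43 CPM to 11.4, 8.98 and 6.93 CPM (2.61 ± 0.31). Kif11, the motor that pushes spindle poles apart, went from 0.862, 1.48 and 0.651 CPM to 2.41, 2.51 and 3.05 CPM (1.40 ± 0.42, adjusted p = 0.0236). Its call was lost when either WT replicate 1 or 3 or KO replicate 1 or 3 was left out (adjusted p between 0.0548 and 0.0914), and under quantile normalization (log2 fold change 0.65, adjusted p = 0.180 from limma).

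At the centromere, 2 of 3 genes were higher. Cenpe, a kinesin that carries chromosomes to the spindle equator, went from 1.08, 0.530 and 1.82 CPM to 18, 17.0 and 11.3 CPM (log2 fold change 3.77 ± 0.39), and Cenpf, a kinetochore protein of G2 and mitosis, from 1.29, 2.01 and 1.95 CPM to 19.2, 14.3 and 13.4 CPM (3.15 ± 0.28). Cenpa, the histone H3 variant that marks centromeres, did not follow them. It stood at 20.6, 17.7 and 18.8 CPM in the WT mice and at 18.3, 12.4 and 14 CPM in the KO mice (-0.35 ± 0.18, adjusted p = 0.145), the groups overlapped, and its sign turned when libraries were scaled by size alone (0.07). Its promoter holds both CCAAT and CHR letters, and no coding gene on the other strand overlaps its last 500 bases.

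Of 6 cytokinesis genes, 5 were higher. Anln, the anillin of the contractile ring, went from 1.08, 1.17 and 0.782 CPM to 13.3, 11.4 and 12.3 CPM (log2 fold change 3.58 ± 0.27, adjusted p = 1.62e-05). Prc1, which bundles the midzone microtubules, went from 1.29, 1.91 and 0.912 CPM to 13.6, 13.5 and 8.81 CPM (3.09 ± 0.34). Kif23 and Racgap1 form the centralspindlin complex. Kif23 went from 1.18, 2.22 and 1.30 CPM to 12.8, 11.4 and 7.99 CPM (2.74 ± 0.34), and Racgap1 from 1.51, 1.91 and 1.69 CPM to 9.44, 5.28 and 6.81 CPM (2.07 ± 0.33). Ect2, the exchange factor that centralspindlin recruits, went from 0.969, 0.636 and 0.391 CPM to 5.27, 1.45 and 3.11 CPM (2.27 ± 0.57, adjusted p = 0.0101), the most uneven of these genes among KO mice, and was not called under quantile normalization (1.16, adjusted p = 0.0939 from limma). Kif20a, whose count ratio to Cdc23 is given above, was at 16, 16.5 and 19.4 CPM and at 24.0, 17.4 and 22 CPM (0.29 ± 0.17, adjusted p = 0.182) and was higher only with libraries scaled by size alone (0.72).

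**Figure D4:**
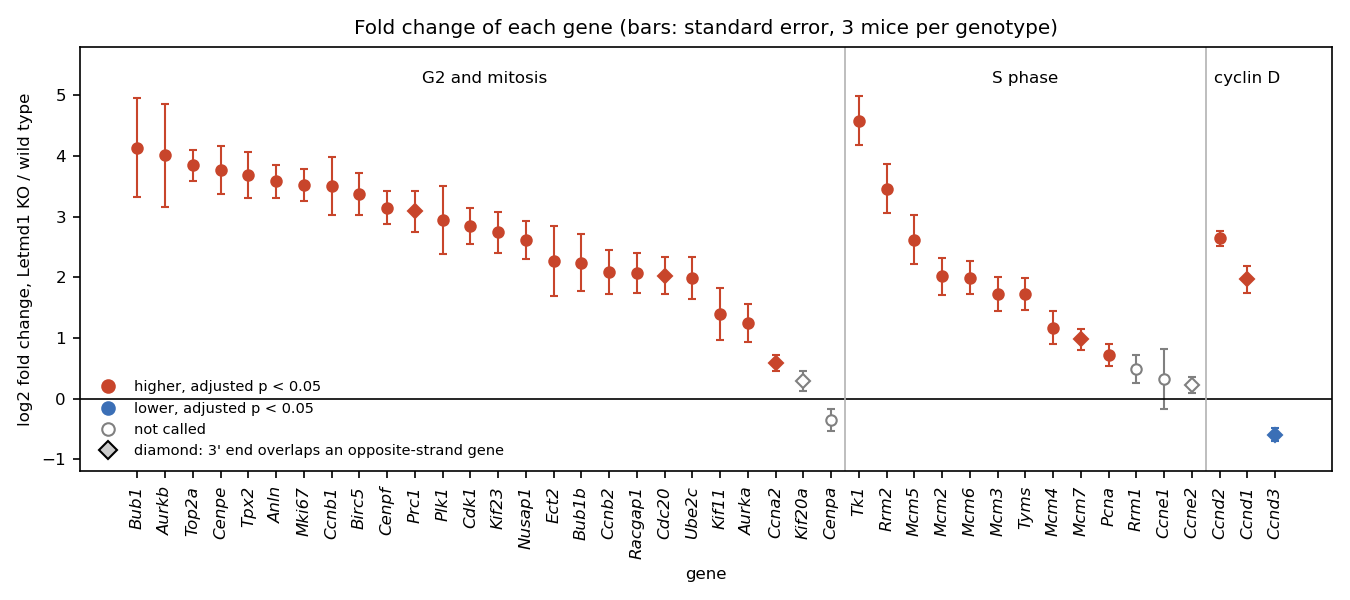
Each point is the fitted log2 fold change of 1 gene in Letmd1 KO against WT BAT with its standard error (n = 3 mice per genotype), red where higher, blue where lower and open where the adjusted p was not under 0.05. Diamonds mark the 8 genes whose 3′ end overlaps a coding gene on the other strand. The genes of G2 and mitosis run from 4.14 (Bub1, on 2 WT counts) down to -0.35, those of S phase from 4.58 down to 0.22, and 5 of the 8 diamonds lie under 1.

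In S phase, the genes that supply nucleotides spanned the widest range. Tk1, the thymidine kinase of the salvage pathway, had the largest log2 fold change of the 42 genes: it stood at 0.323, 1.38 and 0.912 CPM in the WT mice and at 28.5, 16.8 and 18.3 CPM in the KO mice (4.58 ± 0.41, adjusted p = 3.28e-05). Rrm2, the ribonucleotide reductase subunit made in S phase, went from 0.539, 0.741 and 0.391 CPM to 7.46, 7.27 and 4.52 CPM (3.46 ± 0.41). Tyms, the thymidylate synthase, went from 2.69, 3.18 and 3.13 CPM to 12.5, 8.59 and 8.75 CPM (1.73 ± 0.26). Rrm1, the other subunit of the reductase, whose protein is also present outside S phase, stood at 14.3, 22.2 and 24.4 CPM and at 36.2, 24.2 and 25.2 CPM (0.49 ± 0.23, adjusted p = 0.109). The WT and KO values of Rrm1 overlapped, and it was higher only with libraries scaled by size alone (0.91).

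All 6 subunits of the MCM helicase, which opens the DNA ahead of the fork, were higher. Mcm5 went from 1.51, 1.38 and 1.82 CPM to 13.9, 5.02 and 9.87 CPM (log2 fold change 2.62 ± 0.41), Mcm2 from 2.05, 1.91 and 3.78 CPM to 11.7, 9.12 and 10.1 CPM (2.02 ± 0.31), and Mcm6 from 5.49, 3.81 and 5.34 CPM to 25.1, 19.7 and 13.7 CPM (1.99 ± 0.27). Mcm3 went from 3.99, 5.93 and 8.47 CPM to 25.1, 19.3 and 16.3 CPM (1.73 ± 0.28), Mcm4 from 7.97, 6.36 and 10.6 CPM to 25.7, 15.3 and 14.8 CPM (1.17 ± 0.28), and Mcm7 from 22, 22.2 and 19.1 CPM to 50.8, 40.3 and 34.0 CPM (0.98 ± 0.17). The subunits stand in 1 ring in equal number, but their transcripts were not level in WT BAT, where Mcm7 was at 21.1 ± 1.71 CPM and Mcm5 at 1.57 ± 0.23 CPM (SD, n = 3). Mcm7 shares bases with Cops6, which was lower in KO mice (log2 fold change -0.48), and how far its reads add to Mcm7 was not tested.

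Pcna, the sliding clamp that holds polymerases on the DNA, rose from 16.2, 25.7 and 20.3 CPM to 35.3, 36.5 and 30.4 CPM (log2 fold change 0.71 ± 0.18, adjusted p = 0.0108). Neither E cyclin passed the test. Ccne1, a partner of Cdk2 at the start of S phase, stood at 2.59, 5.40 and 1.04 CPM in the WT mice and at 4.17, 4.10 and 3.29 CPM in the KO mice (0.33 ± 0.50, adjusted p = 0.622), so that the WT mice spanned the KO mice, and its sign turned without WT replicate 3 (-0.072). Ccne2 stood at 24.8, 22 and 26.2 CPM and at 28, 30.3 and 27.0 CPM (0.22 ± 0.13, adjusted p = 0.202), with counts near those of Ints8 (log2 fold change 0.05). The groups of Ccne2 did not overlap, although the difference missed the threshold, and it was higher with libraries scaled by size alone (0.64).

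Ccnd2 and Ccnd3 were the most abundant of the 42 genes in both genotypes, and the D cyclins did not move together. Ccnd2 stood at 55.6, 59.2 and 69.0 CPM in the WT mice and at 403, 377 and 367 CPM in the KO mice (log2 fold change 2.64 ± 0.12, adjusted p = 1.80e-06). Its gain of 321 CPM was larger than the summed gain of the 26 genes of G2 and mitosis, 233 CPM. Ccnd1 went from 10.7, 17.6 and 16.9 CPM to 69.0, 46.0 and 61.5 CPM (1.97 ± 0.22, adjusted p = 0.000118). Its opposite-strand neighbour Oraov1 was at a log2 fold change of 0.14 (adjusted p = 0.654). Ccnd3 went the other way, from 116, 110 and 112 CPM to 82.8, 67.8 and 73.6 CPM (-0.59 ± 0.11, adjusted p = 0.00192), and every KO mouse was below every WT mouse. Bysl, which shares the 3′ end of Ccnd3, fell by 0.51 on the log2 scale (adjusted p = 0.00399), and the reads of the pair cannot be told apart. With libraries scaled by size alone, Ccnd3 was at -0.17 and did not pass the test (adjusted p = 0.227).

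Ratios between the D cyclins do not depend on the scaling of the libraries. They do rest on counts that may include reads of a neighbour, Bysl for Ccnd3 and Oraov1 for Ccnd1. How far such reads add to the shares and ratios was not tested. Of the counts of the 3 genes, Ccnd3 made up 63.6%, 59.0% and 56.7% in the WT mice, and 14.9%, 13.8% and 14.6% in the KO mice. Ccnd2 made up 30.6%, 31.6% and 34.8% and then 72.7%, 76.8% and 73.1%. Ccnd1 made up 5.86%, 9.39% and 8.54% and then 12.4%, 9.37% and 12.2%, where the WT and KO ranges overlapped. Every exact binomial interval (95%) of the shares of Ccnd2 lay apart between the genotypes, from 28.4% to 37.3% over WT mice and from 71.4% to 78.2% over KO mice. The log2 ratio of Ccnd2 over Ccnd3 was -0.89 ± 0.18 (SD, n = 3) in WT and 2.36 ± 0.10 in KO BAT, a difference of 3.25 (exact permutation test over mice, two-sided, p = 0.1). The difference was 2.58 for Ccnd1 over Ccnd3 and 0.67 for Ccnd2 over Ccnd1, each with an exact permutation p = 0.1. With 3 mice against 3 this is the smallest p that the test can give, and adjustment over the 3 ratios left it at 0.1.

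Summed over the genes of each class, the level in the 3 WT mice was 103, 97.7 and 99.3 CPM for G2 and mitosis and 405, 307 and 288 CPM in the KO mice, 3.33 times as high. For S phase the sums were 104, 122 and 125 CPM and 305, 236 and 216 CPM, 2.15 times as high. For the D cyclins they were 182, 187 and 198 CPM and 555, 491 and 502 CPM, 2.73 times as high. The sums carry no test, since the genes were chosen as a group, and they weigh the abundant genes most. In WT mice the mean sum for G2 and mitosis was 100 CPM, with Ccna2 at 30.1, Cenpa at 19.0 and Kif20a at 17.3 CPM. For S phase it was 117 CPM, with Ccne2 at 24.3, Mcm7 at 21.1, Pcna at 20.7 and Rrm1 at 20.3 CPM. Among these genes, Ccna2, Kif20a, Ccne2 and Mcm7 have the opposite-strand overlap. The sum for G2 and mitosis over that for S phase, which is free of the scaling, was 0.991, 0.798 and 0.791 in the WT mice and 1.33, 1.30 and 1.33 in the KO mice.

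**Figure D5:**
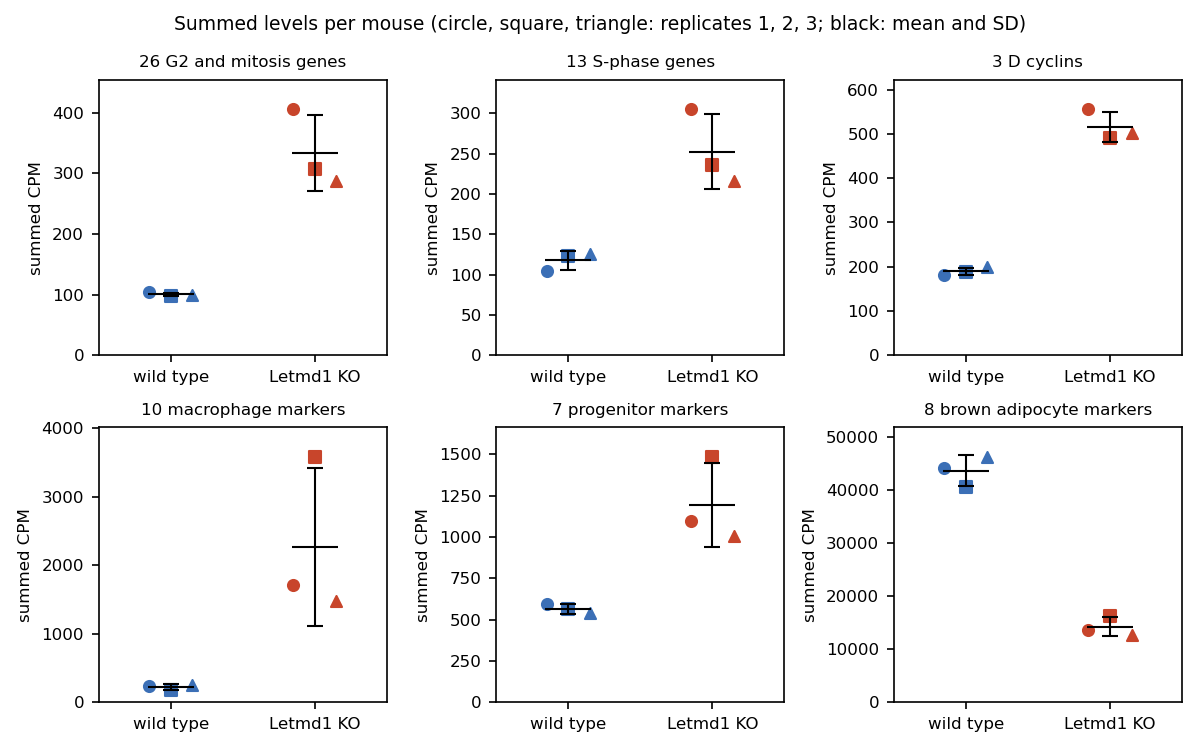
Each panel gives the summed TMM-scaled CPM of a set of genes in each mouse, with circles, squares and triangles for replicates 1, 2 and 3 and the mean and SD in black (n = 3 mice per genotype). Among KO mice, the sums of the 3 cell cycle classes were highest in replicate 1. Those of the macrophage, progenitor and brown adipocyte markers were highest in replicate 2. Fabp4 made up 12620 of the 16297 CPM of the brown adipocyte sum in that mouse. Fabp4, Adipoq, Plin1 and Elovl3 were highest there among KO mice, whereas Ucp1, Cidea, Cox7a1 and Pparg were lowest.

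The size of the change went with the level in WT BAT. Of 30 genes under 5 CPM there, 29 were higher, and their median log2 fold change was 2.79. Some of the 30, such as Bub1 and Aurkb, passed the count filter through the KO mice alone and could not be called lower. Of 10 genes at 10 CPM or more, 5 were higher, with a median of 0.54, and this group held Ccnd2 (2.64) as well as Ccnd3 (-0.59). Both genes between 5 and 10 CPM, Mcm3 and Mcm4, were higher. Spearman's rho between the WT level and the log2 fold change was -0.78 over the 42 genes, a description only, because the WT level is also in the fold change. Of the 10 genes at 10 CPM or more, Kif20a, Ccna2, Ccne2, Ccnd1, Ccnd3 and Mcm7 are among the 8 with an opposite-strand overlap. Altogether, 25 genes had a log2 fold change of at least 2, of which 20 act in G2 and mitosis and 4 in S phase, and 13 had one of at least 3.

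The KO mice were not alike. Replicate 1 had the highest level among them for 37 of the 42 genes, and the lowest level was that of replicate 3 for 24 genes and of replicate 2 for 17. The coefficient of variation of the level among KO mice had a median of 22% over the 42 genes. Without KO replicate 1, 35 genes were higher and 1 was lower.

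Lists of other genes of the same pathways differed in the share that was higher, against 23.7% of all genes tested. Each list held genes under 10 counts in every WT mouse, such as Pole2, Ska1, Ccnf and E2f8. These passed the count filter through the KO mice alone and could not be called lower. Of 43 tested genes of replication origins and forks, 25 were higher (58.1%) and 1 was lower, with a median log2 fold change of 0.81. The largest changes were those of Cdt1, which loads the MCM helicase, from 1.18, 1.17 and 0.782 CPM to 9.55, 9.91 and 7.28 CPM (log2 fold change 3.06 ± 0.31), of Gins1, a subunit of the active helicase (2.40 ± 0.46), and of Lig1, the ligase that joins Okazaki fragments (1.93 ± 0.15). Gmnn, geminin, the inhibitor of Cdt1, was the 1 gene that was lower, from 21.7, 26.7 and 22.3 CPM to 15.8, 8.85 and 14.9 CPM (-0.82 ± 0.22, adjusted p = 0.0129). This call was lost with libraries scaled by size alone (-0.40, adjusted p = 0.159).

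Of 43 tested genes of kinetochores, spindle and condensin, 36 were higher (83.7%) and 1 was lower, with a median of 2.27. The 3 with the largest changes had 1 to 3 counts in all WT mice together, so they are given as ratios of summed counts, scaled as for Aurkb. They passed the count filter through the KO mice alone and could not be called lower. Ska1, a kinetochore protein, had 0, 0 and 1 counts and then 46, 24 and 28, a ratio of 76.7 with a counting interval of 13.5 to 3062. Cenph had 0, 2 and 1 counts and then 28, 31 and 50 (28.5, interval 9.48 to 140), and Ndc80, which binds microtubules, had 0, 1 and 2 counts and then 38, 19 and 40 (25.3, interval 8.41 to 125). Cenpk was the 1 lower gene (-0.61 ± 0.20, adjusted p = 0.0350). Cenpk overlaps Ppwd1 on the other strand, with a count ratio between 0.701 and 0.877 in the 6 mice. Ppwd1 was at a log2 fold change of -0.46 (adjusted p = 0.0709). The call of Cenpk was lost in 4 of the 6 fits that left out 1 mouse (adjusted p between 0.0675 and 0.121). It was also lost with libraries scaled by size alone (-0.19, adjusted p = 0.451).

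Of 22 tested kinases, inhibitors and other regulators of the cycle, 7 were higher (31.8%) and 3 were lower, with a median of 0.31, a share not far from that of all genes. Cdkn2b, an inhibitor of Cdk4 and Cdk6, rose from 0.969, 0.424 and 2.47 CPM to 7.13, 4.62 and 6.17 CPM (2.25 ± 0.52). Ccnf, cyclin F, rose by 2.15 ± 0.57 and Skp2, the ubiquitin ligase subunit that removes p27, by 1.94 ± 0.52, although quantile normalization with limma called neither (adjusted p = 0.0915 and 0.0522). The call of Skp2 was also lost without WT replicate 2 (adjusted p = 0.0510) and without KO replicate 1 (adjusted p = 0.0572). The 2 other inhibitors of the Cdkn2b family that were tested fell: Cdkn2c went from 74.8, 63.6 and 58.7 CPM to 25.6, 40.6 and 26 CPM (-1.10 ± 0.19) and Cdkn2d from 33.0, 37.0 and 29.6 CPM to 21.3, 17.3 and 22 CPM (-0.71 ± 0.15). With libraries scaled by size alone, Cdkn2d stood at -0.29 and lost its call (adjusted p = 0.1545). Cdc25a, a phosphatase that activates cyclin-dependent kinases, was also lower (-0.97 ± 0.17). Cdkn2a, of the same family, had 0 counts in the 3 WT mice and 5, 1 and 10 in the KO mice and was not tested. The inhibitor Cdkn1a, which encodes p21, was abundant in both groups, at 294, 224 and 405 CPM and at 418, 307 and 364 CPM (0.24 ± 0.21, adjusted p = 0.374). Cdkn1b, which encodes p27, was at 0.20 ± 0.12 (adjusted p = 0.183) and Cdkn1c, which encodes p57, at -0.56 ± 0.27 (adjusted p = 0.121). The calls of these 3 depended on the setting: Cdkn1a and Cdkn1b were higher with libraries scaled by size alone (0.67 and 0.62) and under quantile normalization (0.63 and 0.34), and Cdkn1c was lower without WT replicate 3 or KO replicate 2 (-0.80 and -0.89).

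Of 19 tested E2F, pocket protein, DREAM and Myc genes, 5 were higher (26.3%) and 3 were lower, with a median of 0.09, again a share close to that of all genes. Myc, a transcription factor of growth, rose from 1.40, 3.50 and 1.82 CPM to 16.5, 21.8 and 17.8 CPM (3.04 ± 0.32), and Foxm1, which drives G2 and mitosis genes, from 0.862, 0.636 and 0.782 CPM to 5.71, 2.64 and 2.76 CPM (2.26 ± 0.47). Among E2F factors, E2f1, an activator, rose from 3.12, 1.17 and 1.04 CPM to 9.22, 7.13 and 7.52 CPM (2.14 ± 0.41), E2f8, a repressor that is made in S phase, rose from 0, 4 and 1 counts to 18, 27 and 30 counts (3.58 ± 0.75), and E2f5, which acts with the pocket proteins of resting cells, fell (-0.80 ± 0.20). Rbl2, the pocket protein p130 of the DREAM complex, fell from 93.6, 81.4 and 93.0 CPM to 46.5, 54.6 and 53.4 CPM (-0.79 ± 0.12, adjusted p = 0.000540), and Tfdp2, an E2F partner, fell by 0.69 on the log2 scale. With libraries scaled by size alone, E2f5 stood at -0.38 (adjusted p = 0.126) and Tfdp2 at -0.27 (adjusted p = 0.0731), and both calls were lost. Rbl2 shares its 3′ end with Aktip, with a count ratio between 0.698 and 0.816, and Aktip also fell (-0.68, adjusted p = 0.00141). E2f5 shares 26 bases with 1810022K09Rik, which fell as well (-0.54, adjusted p = 0.00414). Rb1, the retinoblastoma protein, stood at 0.03 ± 0.12 (adjusted p = 0.847). It shares its 3′ end with Rcbtb2, which fell (-1.31, adjusted p = 0.000525). How far reads of these neighbours add to Rbl2, E2f5 and Rb1 was not tested. Rb1 was called higher with libraries scaled by size alone (0.45, the shift of the median of all genes). Mybl2, the B-Myb partner of the complex in cycling cells, had 8, 6 and 5 counts and then 5, 12 and 38, and was not tested.

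Markers of other cell types moved in the same mice. All 10 macrophage markers were higher, and their sum was 241, 178 and 250 CPM in the WT mice and 1716, 3582 and 1481 CPM in the KO mice, with Adgre1 and Cd68 present in every mouse. This sum was highest in KO replicate 2, which was the highest KO mouse for 4 of the 42 cell cycle genes. Of 7 progenitor markers, 6 were higher, with a mean sum of 565 CPM in WT and 1196 CPM in KO BAT, and 7 of 8 brown adipocyte markers were lower. Endothelial markers were lower for 3 of 6. T cell markers were near the floor, with 2 of 3 tested genes higher and sums of 3.55 to 6.51 CPM and 6.14 to 13.3 CPM, and none of 4 B cell markers had enough counts to be tested. Neutrophil markers varied within both groups, with sums of 1.06 to 41.4 CPM and 0.998 to 39.8 CPM and 0 of 2 called, and erythroid markers passed the test for 0 of 6 genes. At an unadjusted p under 0.05, 1 of these 6 erythroid and 0 of the 2 neutrophil genes were lower. Skeletal muscle genes were near 0 in WT replicates 1 and 3 (sums of 2.37 and 2.08 CPM) but at 254 CPM in WT replicate 2 and at 254, 184 and 754.5 CPM in the KO mice, with 1 of 6 tested genes higher (6 of 6 without WT replicate 2) and Pax7, the marker of muscle stem cells, at 0 in all 6. The part of any of these cell types in the level of the cell cycle genes was not tested.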

How the data were processed

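RNA of BAT from 3 wild-type and 3 Letmd1 KO mice had been made into QuantSeq 3′ libraries. Per the submitters' processing notes, the authors used Bowtie2, bedtools and the mm10 build, and they deposited whole-number read counts for each gene and mouse, without normalization. The use of strand, the annotation and the tool versions are not given in the sources used here, and reads that align to several genes may add to more than 1 of them. The quantile normalization named in the methods is not in the deposited counts and was tried as an alternative.

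Samples were grouped by the genotype in their labels. Of 23282 rows, 5588 had no counts. Counts were tested in R 4.3.3 with edgeR 4.0.16 (quasi-likelihood test, TMM scaling, default filter at 10 counts and a total of 15, two-sided, Benjamini-Hochberg adjustment over the 12995 genes tested, threshold 0.05). On counts simulated for this comparison, 156 of 194 genes with a known change were found, with 15 false calls among 12481 others. In the measured counts, 3082 genes were higher and 2896 were lower. The rate of false calls where that many genes differ was not tested. Alternatives were library size alone, quantile normalization with limma 3.58.1, DESeq2 1.42.0, no filter, a mean of at least 50 counts, a threshold of 0.01, the replicate number as a block, and leaving out each mouse. Shares of D cyclins and exact permutation tests were computed in Python 3.11.15 with SciPy 1.17.1. Nothing in the labels pairs mice across genotypes.

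The 42 genes, the lists of related genes and the markers were chosen with earlier results of these data known. From each related list the 3 genes with the most positive and the 3 with the most negative change past the threshold are named, besides a fixed set of inhibitors and transcription factors. Gene positions came from GENCODE vM21 on GRCm38 and placed all 42 genes. The libraries held 6669577 to 14574273 counts. No mouse repeated another of its genotype within counting error (the lowest chi-square of any pair, divided by its degrees of freedom, was 12.1), so each was counted. The precision behind genes with a few counts is limited by counting error, which intervals cover alone, and p-values measure the spread among these 6 mice.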

Additional observations from a re-analysis of the deposited data

How the results depend on the processing

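Over the 42 genes, DESeq2 and the fit without a filter left every gene on its side of the threshold. Scaling by library size alone changed the most: 5899 genes were higher and 1368 lower over all genes tested, none of the 42 was lower (0, also among the D cyclins), Cenpa turned to 0.074, and the medians rose to 3.21 for G2 and mitosis, 2.15 for S phase and 2.39 for the D cyclins, with sums 4.46, 2.88 and 3.65 times as high in Letmd1 KO mice. By the same scaling, 14 cycle regulators and 10 E2F and DREAM genes were higher, 1 E2F or DREAM gene was lower, and 0 kinetochore and 0 replication genes were lower. Quantile normalization lowered the medians to 2.10 and 1.25 for G2 and mitosis and for S phase, with 14 replication genes higher and 2 lower. Scaling by library size moves all genes of a mouse by the same amount, and the cause of the other shifts was not tested. A mean of at least 50 counts left fewer genes to test, with 14 G2 and mitosis genes, 7 kinetochore genes, 4 regulators and 3 E2F and DREAM genes higher. At a threshold of 0.01, 1985 genes were higher over all genes. Without the 8 genes that overlap an opposite-strand gene, an alternative chosen after seeing the data, 31 were higher and 0 were lower.

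Leaving out each mouse in turn gave 2494 to 2999 genes higher and 2348 to 2869 lower over all genes, and 35 to 36 of the 42 higher, with 23 to 24 of the G2 and mitosis genes. The medians ran from 2.57 to 2.93 for G2 and mitosis, from 1.49 to 1.81 for S phase and from 1.77 to 2.12 for the D cyclins. Higher genes numbered 3 to 6 among regulators (3 without WT replicate 2 or KO replicate 1, 4 without KO replicate 3), 5 to 7 among E2F and DREAM genes, 31 to 37 among kinetochore genes and 18 to 24 among replication genes. Lower genes numbered 3 to 5 (5 without WT replicate 3), 3 in each fit, 0 to 1 (0 without WT replicate 1 or KO replicate 2 or 3) and 1 to 2 (2 without WT replicate 3). Ccne1 ran from -0.072 (without WT replicate 3) to 1.03 (without WT replicate 2), and Rb1 from -0.049 (without WT replicate 3) through -0.0089 (without KO replicate 2) to 0.11 (without WT replicate 1). The cause was not tested.

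Mice that share a replicate number did not visibly deviate together (r = 0.069, -0.11 and -0.087 for numbers 1, 2 and 3). With 3 mice per genotype, these values cannot exclude a shared batch. With the number as a replicate block, Kif11 was no longer called (log2 fold change 1.44, adjusted p = 0.0526 from edgeR), 35 of the 42 genes were higher and 1 was lower, and no other call among the 42 changed. Depth limits the genes with few wild-type counts: a floor of 3 counts was up to 0.396 CPM.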

Other observations

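Of the 50 listed genes of kinetochores, spindle and condensin, 7 had too few counts to be tested, and they are given here as counts. Kif18b, a mitotic kinesin, had 0, 0 and 0 counts in wild-type (WT) and 3, 8 and 12 in Letmd1 KO (KO) mice. Nek2, a centrosome kinase, had 0, 1 and 0 counts and then 9, 10 and 12. Cdca5, which holds sister chromatids together, had 0, 0 and 1 counts and then 12, 6 and 4, and the kinesin Kif4 had 0, 0 and 2 counts and then 15, 7 and 10. Each of these 4 had more counts in every KO mouse than in any WT mouse, and also a higher CPM. KO replicates 1 and 2 had the smallest libraries and KO replicate 3 the largest. Kif18a had 0, 5 and 4 counts and then 18, 6 and 16, Dlgap5 had 4, 0 and 2 counts and then 14, 14 and 5, and Ska3 had 5, 1 and 9 counts and then 15, 7 and 14. The genotypes overlapped for Ska3. They also overlapped for Dlgap5 in CPM, at 0.431 in WT replicate 1 and 0.294 in KO replicate 3.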
